A study of Mus musculus with 15 samples.

Results

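The 42 genes described here encode enzymes and 1 carrier of amino acid catabolism and the urea cycle in mouse liver, and they were taken by name from a list drawn up by function with earlier results of these data known. Measured values entered the rule itself only in the choice of probe set. Each gene was represented by its brightest probe set with a single gene symbol, by mean over all 15 arrays. By that rule 39 of the 42 genes could be followed among 18193 genes on the arrays, and 3 (Gls2, Sds and Sdsl) had no probe set with 1 symbol in the annotation used here. All 39 were among the 16294 genes tested. The samples were primary hepatocytes of C57BL/6 mice, all carrying an adenovirus, in 5 groups of 3 arrays. WT cells overexpressed wild-type IRE1a for 48 h, S724A cells overexpressed IRE1a with the S724A substitution for 48 h, and EGFP cells overexpressed EGFP as their control for 48 h, with no further treatment in any of these 3 groups. Cells with a hairpin against IRE1a (shIRE1a) and cells with a control hairpin (shCON) were infected for 72 h and then given glucagon for 4 h, so no hairpin group without glucagon and no 48-h group with glucagon was part of the design analysed. The series text says that 3 experiments were carried out independently; the sources used here do not give the number or age of the animals, or the promoters of the viral transgenes.

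Hepatocytes are the main site at which surplus amino acids are broken down. Aminotransferases and dehydrogenases move the nitrogen to glutamate, aspartate and ammonia, the urea cycle turns it into urea, and the carbon skeletons enter gluconeogenesis, ketogenesis or the citric acid cycle. Glucagon, the fasting hormone, is known to raise the expression of many of these enzymes through cyclic AMP. IRE1a, encoded by Ern1, is a kinase and endoribonuclease of the endoplasmic reticulum that splices Xbp1 messenger RNA under stress, and S724A replaces a serine that is phosphorylated when the protein is activated.

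Signals below are log2 values per probe set as deposited, and a difference of 1 is a doubling on the linear scale. Changes are differences of group means ± limma's standard error. A gene is said to have risen or fallen where the Benjamini-Hochberg adjusted p of limma's moderated test was under 0.05 over all 16294 genes. Array medians lay between 5.69 and 5.83, and 79.0% to 81.4% of probe sets reached a signal of 4. Signal near background and 3 arrays a group limit the precision, with a median half-width of 0.30 for the 95% interval of a change. The probe set of Ern1 read 7.60, 7.44 and 7.51 in shIRE1a cells and 8.89, 8.96 and 9.10 in shCON cells, a fall of 1.47 on the log2 scale (adjusted p = 0.00293). That fall was 0.56 when all Ern1 probe sets were averaged. In WT and S724A cells the same probe set differed by 0.12 ± 0.19 (adjusted p = 0.775) and 0.46 ± 0.19 (adjusted p = 0.159) against EGFP, and the S724A difference passed with array number as a block. The sources used here do not say whether the probe set lies in the viral sequence. All 6 hepatocyte markers with a probe set (Alb, Ttr, Apoa1, Apob, Serpina1b and Fgb) lay above the floor of 4 in every group, and their summed linear signal was 62369 to 66649 in WT, 59597 to 65706 in S724A, 65593 to 66964 in EGFP, 54286 to 62161 in shIRE1a and 52925 to 67776 in shCON cells. Macrophage markers summed to 7557 to 9090 in WT, 8173 to 10177 in S724A, 5896 to 6782 in EGFP, 5984 to 8155 in shIRE1a and 4736 to 6707 in shCON cells, with Ptprc below the floor. No macrophage marker passed the test in any comparison, although 1 rose with each form of IRE1a in the blocked fit described further on. Their sum was higher in every WT and S724A array than in every EGFP array, and the part of other cells in the member results was not tested. In these bulk samples fewer cells of a type and less RNA per cell cannot be told apart.

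With wild-type IRE1a 6 of the 39 members changed. Nags, Gpt2, Bckdha, Mccc2 and Oat rose and Dbt fell, which is 5 of 39 up where 5.08% of all genes rose and 1 of 39 down where 2.59% fell. With S724A IRE1a 5 members changed: Nags, Bckdha, Mccc2 and Oat rose and Dbt fell, against 3.87% of all genes that rose and 2.25% that fell. Most members are bright, and brighter genes were called more often. When only the 11489 genes at 6 or more on at least 3 arrays were tested, 12.2% were called with wild-type and 8.76% with S724A IRE1a. The shares of members called above were 15.4% and 12.8%. The members' median change was 0.26 with wild-type and 0.19 with S724A IRE1a, beside medians of 0.00 and -0.01 over all genes, and 27 and 26 of 39 members had a change above 0. Both comparisons use the same 3 EGFP arrays. After quantile normalisation the rises made up 55.3% of all genes called with wild-type and 49.2% with S724A IRE1a, in place of 66.2% and 63.3%. The members called were then 4 up and 1 down with wild-type and 3 up and 1 down with S724A IRE1a. Of all genes 8.44% and 5.72% were called in this setting.

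**Figure D1:**
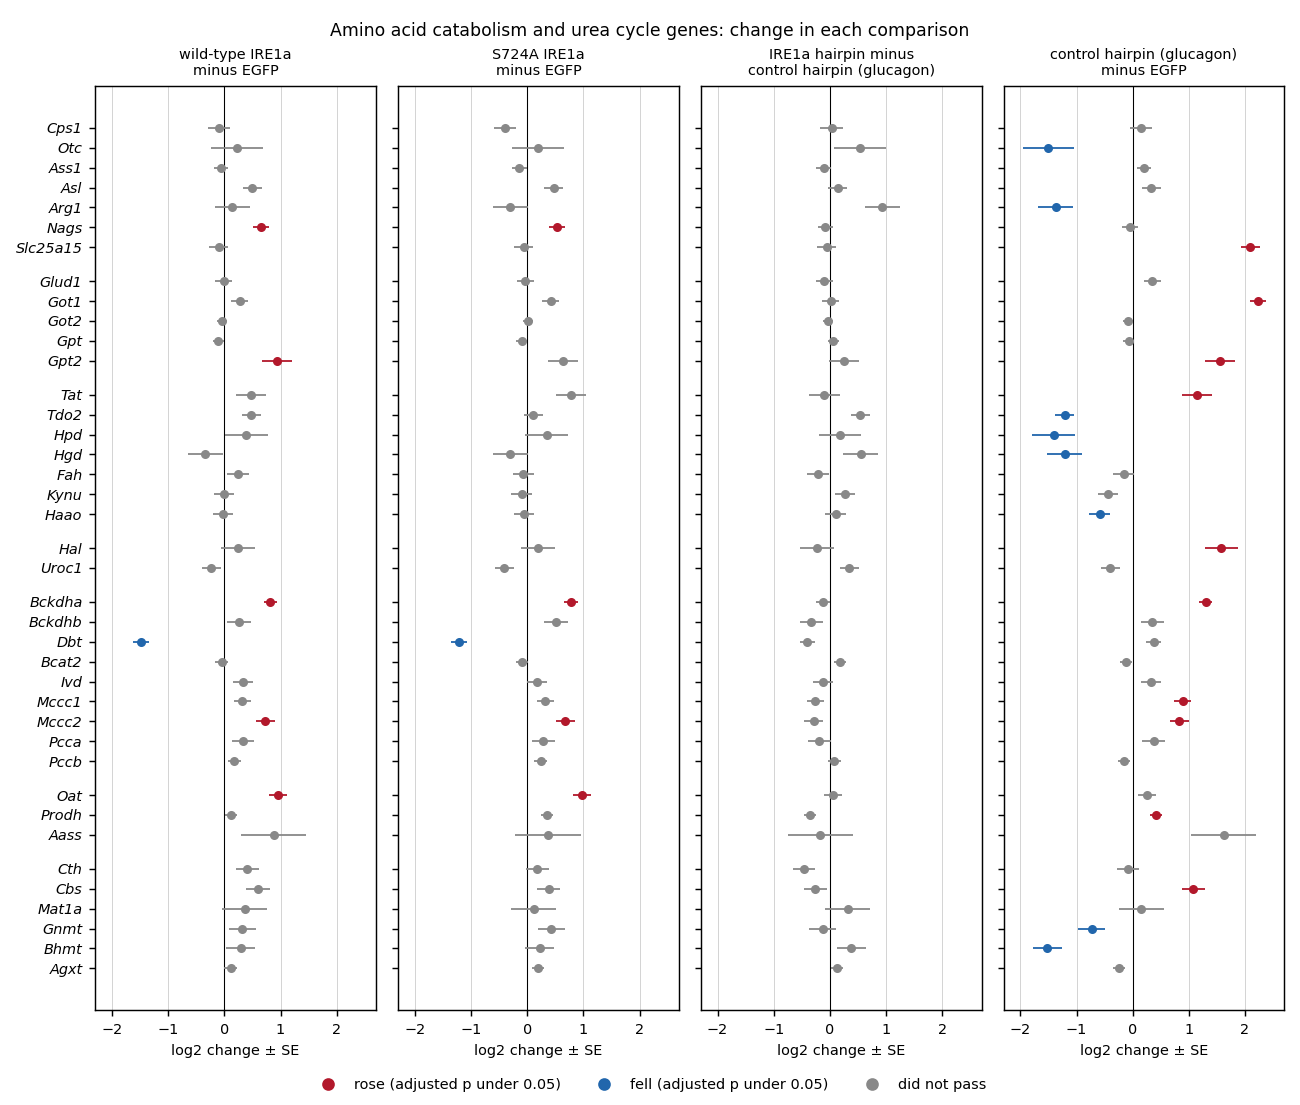
Change of each of the 39 members on the log2 scale (horizontal axis, difference of group means ± SE, n = 3 arrays a group) in 4 comparisons, with members grouped by role from the urea cycle at the top to methionine, cysteine, glycine and glyoxylate at the bottom. Red marks a rise, blue a fall and grey an adjusted p of 0.05 or more; Dbt stands alone on the left in the first 2 panels, no member passed in the third, and 18 passed in the fourth.

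Among the urea cycle genes, Nags rose with both forms of IRE1a. It makes N-acetylglutamate, the activator that carbamoyl phosphate synthetase needs. Nags read 8.71, 8.59 and 8.68 in WT cells, 8.61, 8.64 and 8.38 in S724A cells, and 8.14, 7.76 and 8.12 in EGFP cells. Every WT and S724A array lay above every EGFP array. The change was 0.65 ± 0.14 with wild-type (1.57-fold, adjusted p = 0.00839) and 0.53 ± 0.14 with S724A IRE1a (1.45-fold, adjusted p = 0.0335). The wild-type call held in all 16 alternative settings, while the S724A call was lost after quantile normalisation and without EGFP array 2 or 3 or S724A array 1 or 2 (adjusted p of 0.0534 to 0.165). Cps1, the synthetase itself, read 11.97, 11.40 and 11.81 in WT cells, 11.77, 11.52 and 10.99 in S724A cells, and 11.91, 11.78 and 11.77 in EGFP cells. Its changes of -0.10 ± 0.20 and -0.39 ± 0.20 did not pass (adjusted p = 0.841 and 0.253), and the highest S724A array equalled the lowest EGFP array to 2 decimals. Asl, argininosuccinate lyase, lay above EGFP in all arrays of both groups by 0.50 ± 0.17 (adjusted p = 0.0823) and 0.47 ± 0.17 (adjusted p = 0.105). Otc, Ass1, Arg1 and the ornithine carrier Slc25a15 did not pass in either comparison. The Ass1 probe set was dim, between 4.59 and 5.22 on the 15 arrays; a bright probe set shared by Ass1 and Gm5424, not tested here, averaged 10.82 ± 0.14 in WT, 10.82 ± 0.14 in S724A and 10.91 ± 0.19 in EGFP cells (SD, n = 3 each).

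Of the glutamate and transamination genes, Gpt2, the mitochondrial alanine aminotransferase, read 10.57, 10.60 and 11.18 in WT cells, 10.15, 10.44 and 10.84 in S724A cells, and 9.70, 9.76 and 10.06 in EGFP cells. Neither IRE1a group overlapped with EGFP. Gpt2 rose by 0.94 ± 0.27 with wild-type IRE1a (1.92-fold, adjusted p = 0.0454) and differed by 0.64 ± 0.27 with S724A IRE1a (adjusted p = 0.166). The wild-type call lay close to the threshold and was lost in 10 of 16 alternatives, among them each of the 6 fits that left out 1 WT or EGFP array (adjusted p of 0.0559 to 0.182). All 4 probe sets of Gpt2 pointed the same way, with changes of 0.61 to 1.00 with wild-type and 0.51 to 0.78 with S724A IRE1a. Gpt, the cytosolic alanine aminotransferase, read 9.28, 9.45 and 9.50 in WT, 9.35, 9.50 and 9.41 in S724A, and 9.55, 9.51 and 9.49 in EGFP cells. Its changes of -0.11 ± 0.10 and -0.10 ± 0.10 did not pass, and the groups overlapped. Glutamate dehydrogenase (Glud1) and the aspartate aminotransferases Got1 and Got2 did not pass either; the largest of their changes was 0.42 ± 0.15 for Got1 with S724A IRE1a (adjusted p = 0.102).

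The branched-chain genes held both directions. Leucine, isoleucine and valine are transaminated and then oxidised by the branched-chain keto acid dehydrogenase complex, in which Bckdha and Bckdhb form the decarboxylase and Dbt forms the acyltransferase core. Dbt read 6.79, 7.06 and 6.89 in WT cells, 7.01, 7.14 and 7.36 in S724A cells, and 8.34, 8.28 and 8.54 in EGFP cells. Every WT and S724A array lay far below the lowest EGFP array. Dbt fell by 1.48 on the log2 scale with wild-type (SE 0.14, 2.78-fold lower, adjusted p = 1.17e-05) and by 1.22 with S724A IRE1a (SE 0.14, 2.32-fold lower, adjusted p = 7.54e-05). Bckdha moved the other way. It read 8.01, 7.73 and 8.01 in WT cells, 7.83, 7.95 and 7.84 in S724A cells, and 7.10, 6.94 and 7.24 in EGFP cells. With no overlap, Bckdha rose by 0.82 ± 0.12 (1.77-fold, adjusted p = 0.000723) and by 0.78 ± 0.12 (1.72-fold, adjusted p = 0.00127). Both calls for Dbt and both for Bckdha held in all 16 alternatives, and each gene has 1 probe set. Bckdhb, the partner of Bckdha, differed by 0.26 ± 0.21 and 0.51 ± 0.21 and passed in neither comparison (adjusted p = 0.531 and 0.161).

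Further down the leucine branch, Mccc1 and Mccc2 form methylcrotonyl-CoA carboxylase. Mccc2 read 7.66, 7.76 and 7.90 in WT cells, 7.60, 7.89 and 7.68 in S724A cells, and 7.05, 7.02 and 7.06 in EGFP cells. The groups did not overlap, and Mccc2 rose by 0.73 ± 0.17 (1.66-fold, adjusted p = 0.0139) and by 0.68 ± 0.17 (1.61-fold, adjusted p = 0.0256). All 3 of its probe sets changed in this direction, by 0.40 to 0.73 with wild-type and 0.37 to 0.68 with S724A IRE1a, but their mean did not pass (adjusted p = 0.0807 and 0.102). The wild-type call was also lost without EGFP array 2 (adjusted p = 0.055) or WT array 3 (adjusted p = 0.0584). The S724A call did not hold when EGFP array 1, 2 or 3 or S724A array 2 or 3 was left out (adjusted p of 0.0553 to 0.11). Mccc1 differed by 0.32 ± 0.15 in both comparisons without passing (adjusted p = 0.234 and 0.204). The transaminase Bcat2, isovaleryl-CoA dehydrogenase (Ivd) and the propionyl-CoA carboxylase subunits Pcca and Pccb had changes of -0.09 to 0.33 and none passed; Bcat2 was dim, between 4.44 and 4.87.

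Oat, ornithine aminotransferase, which links ornithine to proline and glutamate, read 9.77, 9.51 and 9.99 in WT cells, 9.81, 9.61 and 9.93 in S724A cells, and 8.98, 8.40 and 9.03 in EGFP cells. All 6 IRE1a arrays lay above the 3 EGFP arrays. The rises were 0.95 ± 0.16 (1.94-fold, adjusted p = 0.00201) and 0.98 ± 0.16 (1.98-fold, adjusted p = 0.00185), and both held in all 16 alternatives. Prodh, proline dehydrogenase, differed by 0.12 ± 0.11 with wild-type IRE1a and by 0.35 ± 0.11 with S724A IRE1a (adjusted p = 0.0675 for S724A, and 0.0487 with values below the floor set to 4). Aass, which starts lysine breakdown, varied with the array number: it read 8.15, 8.42 and 10.31 in WT cells, 7.56, 7.95 and 9.85 in S724A cells, and 7.71, 7.69 and 8.84 in EGFP cells. Array 3 was the highest in each of the 3 groups, and neither change passed (adjusted p = 0.419 and 0.724).

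**Figure D2:**
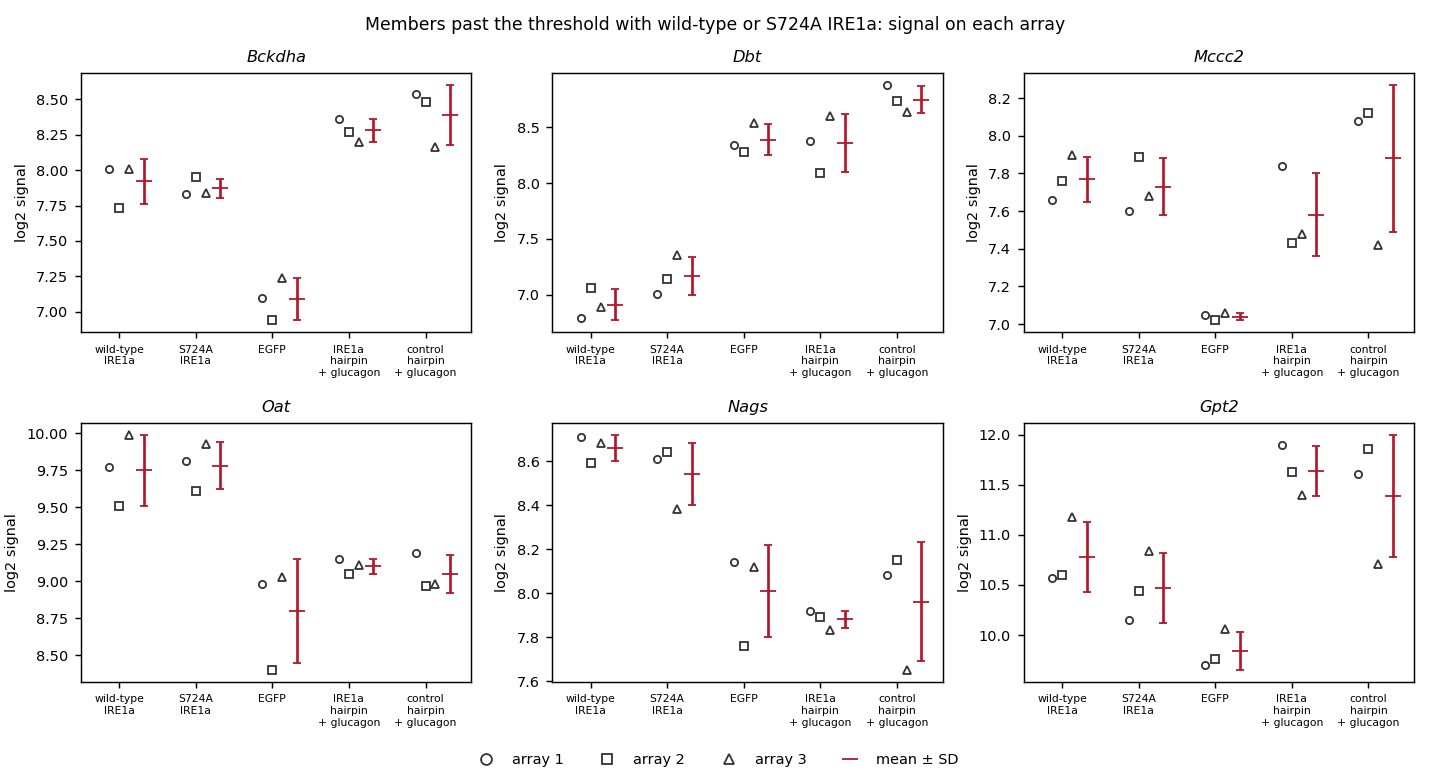
Log2 signal (vertical axis, a separate scale in each panel) of the 6 members that passed with wild-type or S724A IRE1a, on each array of the 5 groups (symbols, with the array's number), beside the group mean ± SD (red, n = 3). Dbt is low in the WT and S724A cells and the other 5 are high there relative to EGFP; the group means of Bckdha and Gpt2 are higher still in both hairpin groups.

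No gene of the aromatic, histidine or methionine groups passed with either form of IRE1a in this fit, which has no block. Its standard errors pool the spread of all 5 groups, which differed by gene. The SD of Hpd was 0.11 in S724A and 1.04 in shIRE1a cells, and that of Tat was 0.48 and 0.17. With array number as a block, described below, Tat, Cth, Cbs and Gnmt each passed in at least 1 comparison. Tat, tyrosine aminotransferase, read 11.71, 10.96 and 11.22 in WT cells, 12.09, 11.14 and 11.61 in S724A cells, and 11.37, 10.25 and 10.86 in EGFP cells. Array 2 was the lowest in all 3 groups, both IRE1a groups overlapped with EGFP, and the changes of 0.47 ± 0.27 and 0.78 ± 0.27 had adjusted p = 0.35 and 0.1. Without EGFP array 1 the change with S724A IRE1a was 1.06 and passed (adjusted p = 0.0359). Cth, which releases cysteine from cystathionine, read 10.98, 10.92 and 11.14 in WT cells, 10.61, 10.80 and 10.93 in S724A cells, and 10.62, 10.46 and 10.72 in EGFP cells. The WT arrays lay above EGFP by 0.41 ± 0.20 (adjusted p = 0.253), while S724A overlapped with EGFP. The tryptophan and tyrosine genes Tdo2, Hpd, Hgd, Fah, Kynu and Haao had changes of -0.34 to 0.48, and histidine ammonia-lyase (Hal) and urocanate hydratase (Uroc1) had changes of -0.41 to 0.24. Uroc1 passed with S724A IRE1a when its probe sets were averaged (change -0.43, adjusted p = 0.0245). The changes of all 6 methionine, cysteine, glycine and glyoxylate genes were above 0 in both comparisons, between 0.11 and 0.60, and Cbs, cystathionine synthase, had the highest with wild-type IRE1a (adjusted p = 0.0942). Cbs passed when the fit used only the 6 arrays of that comparison (adjusted p = 0.0273).

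Arrays that share a number deviated together within an arm, and with that number as a block more members passed. The blocked fit called 11 members with wild-type IRE1a (10 up and 1 down) and 9 with S724A IRE1a (8 up and 1 down), while the counts over all genes were 2539 and 2347 in place of 1250 and 997. Added with wild-type IRE1a were Asl (adjusted p = 0.0386), Tat (0.0168), Aass (0.0158), Cth (0.0395) and Cbs (0.0294). Added with S724A IRE1a were Got1 (adjusted p = 0.0353), Gpt2 (0.0153), Tat (0.00107) and glycine methyltransferase, Gnmt (0.0364). Tat shows what the block removes: WT minus EGFP arrays of the same number differed by 0.34, 0.71 and 0.35, and S724A minus EGFP arrays by 0.72, 0.89 and 0.74. Each difference was above 0 although the groups themselves overlapped.

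**Figure D3:**
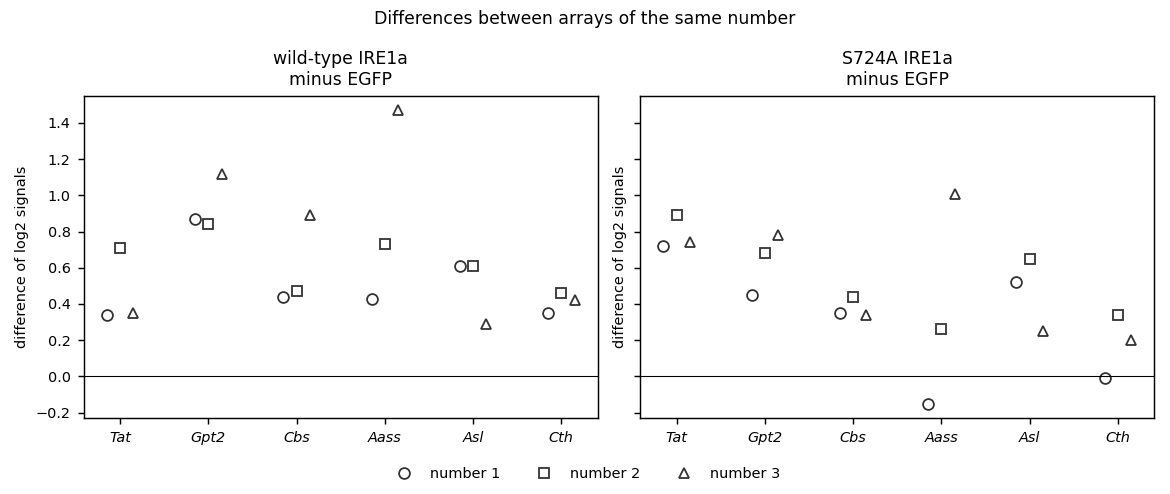
Difference of log2 signals between arrays of the same number (vertical axis), wild-type minus EGFP on the left and S724A minus EGFP on the right, for Tat, Gpt2, Cbs, Aass, Asl and Cth, each with 3 points. Shown are the members that the block added with wild-type IRE1a, and Gpt2, which it added with S724A IRE1a. Got1 and Gnmt, also added with S724A IRE1a, are not shown. The block uses these same differences, so their signs are no separate support for the calls. Every point lies above 0 for all 6 genes with wild-type IRE1a. With S724A IRE1a this holds for Tat, Gpt2, Cbs and Asl, while Aass and Cth each have 1 difference below 0.

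The windows around the transcription starts are shown for 4 members that rose, since their start regions can be compared: Mccc2, Oat and Nags, which rose with both forms of IRE1a, and Got1, whose change between shCON and EGFP cells, described further on, was the largest of any member. Each window runs from 250 bases before to 50 bases after the start, 5′ to 3′ on the gene's strand, from RefSeq's table of mouse assembly GRCm38.p6. The Mccc2 window is chr13:100015590-100015889 on the minus strand, the Oat window is chr7:132576349-132576648 on the minus strand, the Nags window is chr11:102145263-102145562 on the plus strand, and the Got1 window is chr19:43524556-43524855 on the minus strand. Capitals mark matches, on either strand, to TGACG (the cyclic AMP response element core), CCAAT (the CCAAT box) and CCACG (a part of the endoplasmic reticulum stress element).
Mccc2: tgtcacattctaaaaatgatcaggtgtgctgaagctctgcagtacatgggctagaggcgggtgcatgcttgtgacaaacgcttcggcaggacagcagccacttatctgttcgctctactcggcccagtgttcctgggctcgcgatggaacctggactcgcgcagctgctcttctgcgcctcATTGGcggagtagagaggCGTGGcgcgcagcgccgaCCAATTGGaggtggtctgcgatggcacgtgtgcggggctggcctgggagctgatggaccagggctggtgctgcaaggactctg
Oat: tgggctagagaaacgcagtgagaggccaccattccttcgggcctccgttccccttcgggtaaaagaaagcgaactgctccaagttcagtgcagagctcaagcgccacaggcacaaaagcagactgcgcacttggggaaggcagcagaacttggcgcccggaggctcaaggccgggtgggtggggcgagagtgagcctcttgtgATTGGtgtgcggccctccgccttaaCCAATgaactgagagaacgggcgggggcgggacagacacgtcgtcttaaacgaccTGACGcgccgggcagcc
Nags: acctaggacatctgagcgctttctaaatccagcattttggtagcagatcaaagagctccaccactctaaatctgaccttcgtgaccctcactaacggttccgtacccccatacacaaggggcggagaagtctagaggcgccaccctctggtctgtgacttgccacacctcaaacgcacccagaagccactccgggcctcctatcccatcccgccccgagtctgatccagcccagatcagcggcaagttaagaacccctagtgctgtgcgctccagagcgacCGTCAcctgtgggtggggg
Got1: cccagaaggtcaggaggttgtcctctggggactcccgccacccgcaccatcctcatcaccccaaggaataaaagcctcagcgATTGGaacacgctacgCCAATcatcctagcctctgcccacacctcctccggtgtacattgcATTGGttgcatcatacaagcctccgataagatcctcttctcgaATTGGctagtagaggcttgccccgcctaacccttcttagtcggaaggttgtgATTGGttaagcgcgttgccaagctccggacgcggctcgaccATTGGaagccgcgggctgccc
The Mccc2 window holds 3 CCAAT matches, 2 of which overlap, and 1 CCACG. The Oat window holds 2 CCAAT matches and 1 TGACG, and the Nags window holds 1 TGACG. The Got1 window holds 6 CCAAT matches. Of the 42 members, 31 had a window in the table, with 35 windows in all. Dbt and Bckdha were among those without a window. TGACG stood in 4 of these 35 windows (11.4%, against 20.8% of all 32851 windows in the table), CCAAT in 18 (51.4%, against 37.4%) and CCACG in 13 (37.1%, against 32.8%). The full element TGACGTCA and the XBP1 site TGACGTGG stood in 0 of the 35 windows, against 1.79% and 0.676% of all windows. TGACG lies within both of these longer motifs, and CCACG is the reverse complement of bases within TGACGTGG. A match describes the letters of a window and does not show that a factor binds there.

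Wild-type and S724A IRE1a were then compared with each other, which asks whether the substitution altered the response of these genes. No member passed, and no gene of the 16294 did (0%), with 997 genes and 2 members (Tdo2 and Prodh) at an unadjusted p under 0.05. With array number as a block, 2 genes and no member passed, and trended variances called 2 genes and no member. The difference for Dbt was -0.26, with a 95% interval of -0.56 to 0.04. It was -0.03 for Oat (-0.38 to 0.32), 0.04 for Bckdha (-0.22 to 0.31), 0.05 for Mccc2 (-0.31 to 0.40), 0.12 for Nags (-0.17 to 0.41) and 0.31 for Gpt2 (-0.27 to 0.88). With 3 arrays a group, differences inside these intervals remain compatible with the data, so the lack of a call does not show that the 2 forms act alike.

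Partial knockdown of IRE1a under glucagon was examined in shIRE1a against shCON cells. No member passed, where 0.233% of all genes did, and the blocked fit called 200 genes in place of 38 and again no member. Members' changes ran from -0.46 to 0.93 with a median of -0.03, beside 0.02 over all genes. The lowest adjusted p of a member was 0.333 without the block and 0.0638 with it. At an unadjusted p under 0.05 stood 5 of the 39 members, Arg1, Tdo2, Dbt, Prodh and Cth, where 1260 of all 16294 genes did. Arg1, the arginase that releases urea, read 12.18, 12.51 and 12.57 in shIRE1a cells and 10.97, 12.42 and 11.10 in shCON cells. The groups overlapped through shCON array 2, and the change of 0.93 ± 0.31 had an adjusted p of 0.444. Without that array it was 1.39 and passed (adjusted p = 0.0295). With all arrays and the block Arg1 did not pass (adjusted p = 0.0638).

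Cth read 10.09, 10.27 and 9.82 in shIRE1a cells and 10.86, 10.77 and 9.94 in shCON cells, a change of -0.46 ± 0.20 (adjusted p = 0.612). Here shCON array 3 was the low one, and without it the change was -0.76 and passed (adjusted p = 0.0353). With all arrays and the block Cth did not pass (adjusted p = 0.0994). Dbt, which fell with both forms of IRE1a, was also lower in shIRE1a cells: it read 8.38, 8.09 and 8.60 there and 8.88, 8.74 and 8.64 in shCON cells. The arrays did not overlap, but the change of -0.40 ± 0.14 did not pass (adjusted p = 0.482). Prodh likewise lay below shCON on every array (-0.36 ± 0.11, adjusted p = 0.333). Tdo2 overlapped at 0.54 ± 0.17 (adjusted p = 0.404). For the other members that had passed with IRE1a overexpression, the changes were 0.06 for Oat, -0.12 for Bckdha, -0.29 for Mccc2, -0.08 for Nags and 0.25 for Gpt2, all overlapping with shCON.

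The largest differences among the members lay between shCON cells with glucagon and EGFP cells. Of 39 members 10 rose and 8 fell, where 9.34% of all genes rose and 6.74% fell. When only the 11489 genes at 6 or more on at least 3 arrays were tested, 22.5% were called, beside the 46.2% of members here. The groups differ in virus, in time and in glucagon together, and these cannot be told apart. The members' median change was 0.15, beside -0.05 over all genes. After quantile normalisation 15.5% of all genes were called, and rises made up 46.1% of these calls in place of 58.1%. Then 9 members rose and 9 fell, with Prodh lost and Agxt, the alanine-glyoxylate aminotransferase, added. The shIRE1a cells, which also received glucagon, are given beside the other groups below.

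Of the 5 tested glutamate and transamination genes 2 rose (Got1 and Gpt2) and none fell, and of the 7 urea cycle genes 1 rose (Slc25a15) and 2 fell (Otc and Arg1). Got1, the cytosolic aspartate aminotransferase, read 13.10, 13.09 and 12.99 in shIRE1a cells, 13.12, 13.19 and 12.83 in shCON cells, and 10.99, 10.55 and 10.89 in EGFP cells. All 6 hairpin arrays lay far above EGFP, and Got1 rose in shCON cells by 2.23 ± 0.15 (4.7-fold, adjusted p = 6.76e-07). Slc25a15, which exchanges ornithine and citrulline across the inner mitochondrial membrane, read 12.52, 12.48 and 12.02 in shCON cells and 10.39, 9.87 and 10.47 in EGFP cells. It rose by 2.09 ± 0.17 (4.27-fold, adjusted p = 4.68e-06), and in shIRE1a cells it lay between 12.14 and 12.43. Gpt2 read 11.90, 11.63 and 11.40 in shIRE1a, 11.61, 11.86 and 10.71 in shCON, and 9.70, 9.76 and 10.06 in EGFP cells, a rise of 1.55 ± 0.27 in shCON cells (2.94-fold, adjusted p = 0.00196). Got2 and Gpt, the partner isoenzymes of Got1 and Gpt2, differed by -0.08 ± 0.09 and -0.07 ± 0.10 and did not pass (adjusted p = 0.525 and 0.639).

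Otc, which joins carbamoyl phosphate to ornithine, read 6.27, 5.41 and 6.62 in shCON cells and 7.30, 7.50 and 8.01 in EGFP cells. The change was -1.50 ± 0.46 (2.83-fold lower, adjusted p = 0.0382) without overlap, but it ended when any single EGFP array or shCON array 1 or 2 was left out (adjusted p of 0.0505 to 0.146), with a floor of 4 and with robust variances. Arg1 read 10.97, 12.42 and 11.10 in shCON cells and 12.55, 12.80 and 13.25 in EGFP cells. It fell by 1.37 on the log2 scale (SE 0.31, 2.58-fold lower, adjusted p = 0.00906), a call that held in all 16 alternatives (highest adjusted p of 0.0498). Cps1 differed by 0.15 ± 0.20 (adjusted p = 0.633), with 11.92 to 12.08 in shIRE1a, 11.97, 12.32 and 11.61 in shCON, and 11.91, 11.78 and 11.77 in EGFP cells, and the groups overlapped. Nags, Ass1 and Asl did not pass.

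Tat and Hal, which start tyrosine and histidine breakdown, rose, while 4 other genes of the aromatic group (Hpd, Hgd, Tdo2 and Haao) fell. Tat read 11.83, 11.74 and 12.07 in shIRE1a, 11.98, 12.07 and 11.89 in shCON, and 11.37, 10.25 and 10.86 in EGFP cells. The rise of 1.15 ± 0.27 (2.22-fold, adjusted p = 0.0111) was 0.86 without EGFP array 2 and then did not pass (adjusted p = 0.0562). The groups did not overlap. Hal, histidine ammonia-lyase, read 7.70, 7.42 and 6.34 in shCON cells and 5.96, 5.23 and 5.53 in EGFP cells, a rise of 1.58 ± 0.30 (2.98-fold, adjusted p = 0.00367). Hpd, hydroxyphenylpyruvate dioxygenase, which follows Tat, read 8.95, 8.03 and 9.14 in shCON cells and 10.33, 10.01 and 10.01 in EGFP cells. Its fall of 1.41 on the log2 scale (SE 0.38, adjusted p = 0.0235) ended when any single EGFP array or shCON array 2 was left out (adjusted p of 0.0594 to 0.0979) and with a floor of 4. Tdo2, which starts tryptophan breakdown, read 8.34, 8.18 and 7.90 in shCON cells and 9.30, 9.30 and 9.45 in EGFP cells, and fell by 1.21 on the log2 scale (SE 0.17, 2.32-fold lower, adjusted p = 0.000577), a call that held in all 16 alternatives.

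Hgd, homogentisate dioxygenase, read 8.89, 10.17 and 8.88 in shCON cells and 10.12, 10.41 and 11.02 in EGFP cells, so that shCON array 2 overlapped with EGFP. Its change of -1.21 ± 0.31 (adjusted p = 0.017) was carried by 1 of 2 probe sets. The other differed by -0.02, and their mean changed by -0.61 (adjusted p = 0.0457). The call was lost without EGFP array 3, shCON array 1 or shCON array 3 (adjusted p of 0.0552 to 0.084) and in the fit of 6 arrays. Haao, hydroxyanthranilate dioxygenase of the tryptophan route, changed by -0.59 ± 0.18 (adjusted p = 0.035). Without shCON array 2 its change was -0.38, and it passed neither then nor without any 1 of the EGFP arrays (adjusted p of 0.056 to 0.143), nor with a floor of 4 or in the fit of 6 arrays. Kynureninase (Kynu) differed by -0.44 ± 0.18, fumarylacetoacetase (Fah) by -0.16 ± 0.19 and Uroc1 by -0.40 ± 0.17, and none of these passed.

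The branched-chain genes that passed all rose. Bckdha read 8.36, 8.27 and 8.20 in shIRE1a, 8.54, 8.48 and 8.16 in shCON, and 7.10, 6.94 and 7.24 in EGFP cells, a rise of 1.30 ± 0.12 in shCON cells (2.46-fold, adjusted p = 1.73e-05). Mccc1 rose by 0.89 ± 0.15 (adjusted p = 0.00164) and Mccc2 by 0.83 ± 0.17 (adjusted p = 0.00455), and these 3 calls held in all 16 alternatives. Dbt, the member that fell with IRE1a, differed here by 0.37 ± 0.14 and did not pass (adjusted p = 0.0869), though its shCON arrays all lay above EGFP. Oat read 9.15, 9.05 and 9.11 in shIRE1a, 9.19, 8.97 and 8.98 in shCON, and 8.98, 8.40 and 9.03 in EGFP cells. The groups overlapped, and the change of 0.25 ± 0.16 did not pass (adjusted p = 0.305). Without shCON array 3 Bckdhb (0.64, adjusted p = 0.0161), Ivd (0.54, adjusted p = 0.0409), Pcca (0.69, adjusted p = 0.00299) and Glud1 (0.48, adjusted p = 0.0412) also passed.

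Within methionine metabolism the directions were mixed as well. Bhmt, which remethylates homocysteine with betaine, read 8.63, 7.83 and 8.45 in shIRE1a, 8.20, 8.13 and 7.44 in shCON, and 9.53, 8.98 and 9.82 in EGFP cells. It fell in shCON cells by 1.52 on the log2 scale (SE 0.26, 2.87-fold lower, adjusted p = 0.0021), without overlap. Cbs rose by 1.08 ± 0.21 (2.11-fold, adjusted p = 0.00365), with changes of 0.95 and 1.08 for its 2 probe sets. Both calls held in all 16 alternatives. Gnmt changed by -0.73 ± 0.24 (adjusted p = 0.0476) and Prodh by 0.41 ± 0.11 (adjusted p = 0.0196). Leaving out any 1 of the EGFP arrays, shCON array 1 or shCON array 2 ended the call for Gnmt (adjusted p of 0.0812 to 0.167), as did no filter and a floor of 4. Leaving out EGFP array 1 or 3 or shCON array 2 ended it for Prodh (adjusted p of 0.0549 to 0.0628). Cth and the synthetase Mat1a, which makes S-adenosylmethionine, differed by -0.08 ± 0.20 and 0.15 ± 0.40. Aass read 9.61, 10.12 and 9.35 in shCON cells and 7.71, 7.69 and 8.84 in EGFP cells, a change of 1.62 ± 0.58 that did not pass (adjusted p = 0.0708) but did in the fit of 6 arrays (adjusted p = 0.0138).

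**Figure D4:**
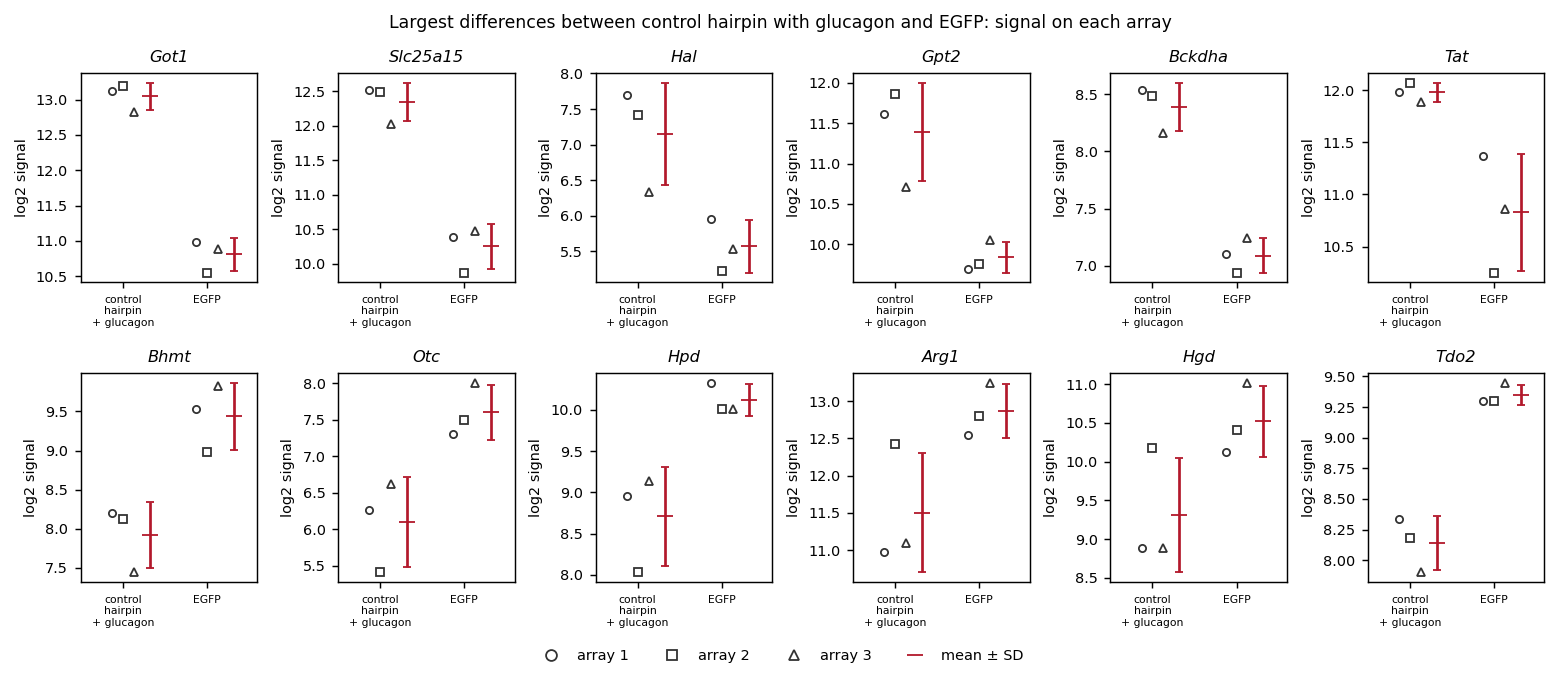
Log2 signal (vertical axis, a separate scale in each panel) on each array of shCON cells with glucagon (left) and EGFP cells (right), with the group mean ± SD (red, n = 3), for the 6 largest rises (top) and the 6 largest falls (bottom) among the members that passed. Got1 and Slc25a15 lie far above EGFP on all 3 arrays, whereas array 2 of shCON stands apart from arrays 1 and 3 for Otc and Hpd (low) and for Arg1 and Hgd (high).

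Other enzymes of amino acid breakdown were listed beside the members, and 41 of 46 were tested. With wild-type IRE1a 4 rose and 1 fell, and with S724A IRE1a 3 rose and 2 fell, at medians of 0.20 and 0.13. After quantile normalisation the counts were 3 up and 1 down, and 0 up and 2 down. The blocked fits called 14 (11 up, 3 down) and 11 (8 up, 3 down). Of all genes 7.67% and 6.12% were called. These shares were 8.44% and 5.72% after quantile normalisation, and 15.6% and 14.4% with the block. Asrgl1, an asparaginase, fell with both forms, by 1.33 and by 1.36 on the log2 scale (SE 0.17 each, adjusted p = 0.000193 and 0.000171), and in all alternatives. Ethe1, a sulfur dioxygenase of cysteine breakdown, rose by 0.57 ± 0.11 with wild-type IRE1a (adjusted p = 0.00635, held in all alternatives) and by 0.43 ± 0.11 with S724A IRE1a (adjusted p = 0.0391). Qdpr, which recycles the cofactor of phenylalanine hydroxylase, rose by 0.37 ± 0.08 and 0.34 ± 0.08 (adjusted p = 0.0134 and 0.0284). Gstz1, of tyrosine breakdown, rose with wild-type IRE1a (0.61 ± 0.15, adjusted p = 0.0259), and Ftcd, of histidine breakdown, changed by -0.79 ± 0.21 with S724A IRE1a (adjusted p = 0.0399). The S724A calls for Ethe1 and Qdpr were lost in at least 5 of the 6 fits that left out 1 array each (adjusted p of up to 0.176), and so was the call for Ftcd (up to 0.132). Qdpr with wild-type IRE1a was lost without EGFP array 3 or WT array 1 (adjusted p = 0.0625 and 0.0514), and Gstz1 without any 1 EGFP array or WT array 3 (adjusted p of 0.0514 to 0.118).

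The regulators of the branched-chain complex did not pass with IRE1a. Ppm1k, the phosphatase that activates it, differed by 0.51 ± 0.20 and 0.53 ± 0.20 (adjusted p = 0.141 and 0.118), and Bckdk, the kinase that inactivates it, by 0.42 ± 0.13 and 0.40 ± 0.13 (adjusted p = 0.0653 and 0.0812). In shCON against EGFP cells Ppm1k rose by 1.93 ± 0.20 (3.81-fold, adjusted p = 3.54e-05), while Bckdk differed by -0.28 ± 0.13 (adjusted p = 0.152). Of all genes 16.1% were called in that comparison, and 15.5% after quantile normalisation. Of the 41 other enzymes 5 rose there and 5 fell (3 and 9 after quantile normalisation). Among those that fell were Agxt2, a mitochondrial alanine-glyoxylate aminotransferase (-2.04 ± 0.27, adjusted p = 0.000325), Asrgl1 (-1.08 ± 0.17, adjusted p = 0.00109) and Shmt2, the mitochondrial serine hydroxymethyltransferase (-0.83 ± 0.18, adjusted p = 0.00754). All 4 of these calls held in every alternative.

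Of 14 tested amino acid carriers, Slc1a4, a carrier of neutral amino acids, fell with both forms of IRE1a by 0.84 and by 0.95 on the log2 scale (SE 0.14 each, adjusted p = 0.00158 and 0.000671). Slc38a4, another carrier of neutral amino acids, changed by -0.71 ± 0.15 with S724A IRE1a (adjusted p = 0.0114), but by -0.30 when its probe sets were averaged (adjusted p = 0.274), and it passed neither so nor without EGFP array 3, S724A array 2 or S724A array 3 (adjusted p of 0.0544 to 0.0559). The blocked fit called 4 carriers with S724A IRE1a, 2 up and 2 down, where 14.4% of all genes were called. Between shCON and EGFP cells 4 carriers rose and 1 fell, where 9.34% of all genes rose and 6.74% fell. Slc7a2, which carries arginine, lysine and ornithine into the cell, rose by 2.36 ± 0.31 (5.14-fold, adjusted p = 0.000277). Slc16a10, a carrier of aromatic amino acids, rose by 1.08 ± 0.17 (adjusted p = 0.00118, and by 0.64 as the mean of its probe sets), and the mitochondrial glutamate carrier Slc25a22 by 1.07 ± 0.19 (adjusted p = 0.00229). Slc6a12, which carries betaine, fell by 1.23 on the log2 scale (SE 0.16, adjusted p = 0.000284), beside the fall of Bhmt, the enzyme that uses betaine.

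Among 13 tested transcription factors known to act on amino acid genes in liver, Xbp1 rose by 0.63 ± 0.11 with wild-type IRE1a (adjusted p = 0.00309) and by 0.52 ± 0.11 with S724A IRE1a (adjusted p = 0.0137). The S724A call was lost without EGFP array 2 or S724A array 2 (adjusted p = 0.0736 and 0.0721). Hnf4a, a receptor that maintains hepatocyte identity, rose with wild-type IRE1a (0.74 ± 0.19, adjusted p = 0.0237), but not without EGFP array 2, WT array 2 or WT array 3 (adjusted p of 0.0575 to 0.126). The blocked fits called 3 factors in each comparison, all up, where 15.6% and 14.4% of all genes were called. Of all genes 16.1% were called in shCON against EGFP cells, and 15.5% after quantile normalisation. In that comparison 7 factors rose and 2 fell, or 6 and 2 after quantile normalisation. The 2 that fell were Nr3c1, a call lost in 7 of 16 alternatives, and Atf4 (-0.52, and -0.27 as the mean of its probe sets). The Atf4 call was lost without shCON array 1 (adjusted p = 0.0569). The coactivator Ppargc1a, which drives gluconeogenic genes, rose by 3.94 ± 0.32 (15.4-fold, adjusted p = 4.68e-06), Klf15 by 2.26 ± 0.46 (4.78-fold, adjusted p = 0.00499), Foxo1 by 1.17 ± 0.15 (adjusted p = 0.00021) and Cebpb by 0.56 ± 0.13 (adjusted p = 0.00949). No carrier, factor or other enzyme passed in shIRE1a against shCON cells, where 0.233% of all genes did. With the block 1 other enzyme passed, beside 1.23% of all genes.

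None of 9 tested genes that ATF4 is known to drive, most of them of amino acid and one-carbon synthesis, passed with either form of IRE1a, at medians of 0.29 and 0.23, and 8 of 9 changes were above 0 in each. The blocked fits called 4 of them with wild-type and 3 with S724A IRE1a, all up. Over all genes the block called 15.6% (1726 up, 813 down) and 14.4% (1448 up, 899 down). Between shCON and EGFP cells 6.74% of all genes fell. Of the 9, 3 fell in shCON against EGFP cells: the pseudokinase Trib3 (-0.98 ± 0.18, adjusted p = 0.00315), Mthfd2, a mitochondrial enzyme of one-carbon metabolism (-0.51 ± 0.14, adjusted p = 0.0257), and Chac1, which breaks down glutathione (-1.17 ± 0.33, adjusted p = 0.0263). The calls for Mthfd2 and Chac1 were each lost in 4 of the 6 fits that left out 1 array (adjusted p of 0.0599 to 0.118).

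The urea cycle and its partners are known to be strongest in hepatocytes near the portal vein, so genes of the 2 zones were listed as well. With wild-type IRE1a 1 of 9 periportal genes rose, Pck1, which encodes the gluconeogenic phosphoenolpyruvate carboxykinase, by 1.03 ± 0.22 (adjusted p = 0.0101), but by 0.28 when its probe sets were averaged (adjusted p = 0.228). It passed neither without EGFP array 2 nor without WT array 3 (adjusted p = 0.0625 and 0.0505). Of 13 pericentral genes only Cyp2e1, a cytochrome P450, passed, with a change of -2.27 ± 0.43 with wild-type IRE1a (adjusted p = 0.00421) and of -1.76 ± 0.43 with S724A IRE1a (adjusted p = 0.0256). The S724A call was lost in 5 of 6 fits without 1 array (adjusted p of 0.0592 to 0.0997). With the block the periportal counts were 1 up and 3 down with wild-type and 1 up and 2 down with S724A IRE1a. The pericentral counts were 2 down in each, where 15.6% and 14.4% of all genes were called. Between shCON and EGFP cells 3 periportal genes rose and 2 fell, and 2 pericentral genes fell. Of all genes 9.34% rose and 6.74% fell. Pck1 rose by 7.25 ± 0.22 (152-fold, adjusted p = 1.43e-10, and by 4.39 as the mean of its probe sets), Aldh1b1 by 0.90 ± 0.18 (adjusted p = 0.00487), while the periportal genes Pigr (-0.94) and Cyp2f2 (-1.47) and the pericentral genes Cyp2e1 (-1.86) and Cyp27a1 (-0.53, and -0.31 as the mean of its probe sets) fell. Of these falls, that of Pigr was lost without EGFP array 3 (adjusted p = 0.0511), and those of Cyp2f2 and Cyp27a1 in 4 of 6 fits without 1 array (adjusted p of up to 0.111 and 0.0716). In that comparison the hepatocyte marker Serpina1b (-0.49, adjusted p = 0.0365), the endothelial markers Tek (-0.67, adjusted p = 0.0116) and Cdh5 (0.64, adjusted p = 0.0241) and the stellate cell marker Acta2 (-0.45, adjusted p = 0.0328) also passed. Each of these 4 marker calls was lost in at least 1 fit without 1 array, and the probe set averages of Cdh5 (0.24) and Acta2 (-0.22) did not pass. Summed endothelial signal was 248 to 299 in shCON and 293 to 334 in EGFP cells, and stellate signal 389 to 400 in shCON and 431 to 487 in EGFP cells, with Col3a1 and Lrat below the floor. Their part in the member differences was not tested.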

How the data were processed

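Gene expression was measured on 15 Affymetrix mouse genome arrays in 5 groups of 3. The authors deposited a log2 signal for each probe set on each array, made with GCRMA per the submitters' processing notes (version not stated there). The log2 scale was read from the values. Of 45101 probe sets, 34945 had 1 gene symbol, 932 several and 9160 none, and 64 were controls. Symbols were updated by gene number for 34741. The brightest probe set stood for each of 18193 genes, and a gene was tested at a signal of 4 or more on at least 3 arrays. A limma 3.58.1 model of 5 groups (lmFit, eBayes, R 4.3.3, 10 residual degrees of freedom) gave 5 contrasts, two-sided, with Benjamini-Hochberg adjustment over 16294 genes and a threshold of 0.05. It was run on simulated data with independent arrays, which lack the shared deviation of arrays with the same number and so cannot test the model for it. The p-values measure the spread between arrays; the sources used here do not say whether the arrays came from separate animals.

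The members and all gene lists were chosen with earlier results of these data known. Every member is accounted for: values per array are given for members that passed within an arm, for Cps1, Gpt, Tat, Bckdha, Oat and Cth, and for the 10 largest changes between the arms among members that passed, with Tdo2 and Hgd equal at the 10th place to 2 decimals. The member fixed for serine, threonine and histidine, Sds, had no probe set with 1 symbol. Of the other lists, up to 4 genes that passed with the smallest p are named per comparison. The values of Asl, Aass, Mat1a, Pcca, Bckdhb, Cbs, Ppm1k, Bckdk, Slc25a13, Nr3c1 and Atf4 that these rules do not cover were added after they were seen, as were the 4 promoter windows. Replicate numbers were taken as pairs within an arm, because residuals of all 12 same-number pairs of arrays correlated (r of 0.204 to 0.686), and not across arms, where 4 of 18 exceeded 0.1. Alternatives were quantile normalisation, median centring, no filter, a filter of 6, a floor of 4, the 6 arrays alone, trended or robust variances, the mean of a gene's probe sets, the replicate block, and leaving out each array.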

Additional observations from a re-analysis of the deposited data

How the results depend on the processing

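No member changed direction, among 39 members, 5 comparisons and all alternatives run, in a comparison where it had passed. With wild-type IRE1a 6 members passed, 11 with the replicate block, and between 4 and 7 otherwise. With S724A IRE1a 5 passed, 9 with the replicate block, and 3 to 5 when 1 array was left out (3 without EGFP array 2, EGFP array 3 or S724A array 2). In shIRE1a against shCON cells 0 passed, also with the block, and 0 to 1 when 1 array was left out (Arg1 without shCON array 2, Cth without shCON array 3). Between wild-type and S724A IRE1a 0 passed throughout. The block ended no member call within an arm. In shCON against EGFP cells 18 passed and 12 to 21 in the alternatives. With replicate number as a block shared by both arms 20 passed, Aass and Uroc1 being added (adjusted p = 0.0301 and 0.0447), but across the arms the samples share only a number. Over all genes the same block gave 3365 calls in place of 2620; the cause of these differences was not tested.

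Calls over all genes, 1250 with wild-type IRE1a, were 715 without EGFP array 2. With S724A IRE1a they were 997, and 487 without EGFP array 2, 643 without EGFP array 3, 538 without S724A array 2 and 596 without S724A array 3. In shIRE1a against shCON cells they were 38, 5 in the fit of 6 arrays, 200 with the block and 13 to 75 when 1 array was left out. In shCON against EGFP cells they were 1331 without shCON array 1, 1477 without EGFP array 2 and 1359 without EGFP array 3. Signal limits Ass1 and Bcat2, whose probe sets lay near the floor, and Gls2, Sds and Sdsl were not analysed here.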

Other observations

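Single arrays carried some of the largest spreads among the members. In both hairpin groups array 2 was the lowest for Otc, at 5.32 in shIRE1a against 6.90 and 7.72 on the other shIRE1a arrays, and at 5.41 in shCON against 6.27 and 6.62. The same arrays were lowest for Hpd, at 7.68 in shIRE1a against 9.41 and 9.55, and at 8.03 in shCON against 8.95 and 9.14. For Mat1a array 2 was instead the highest in both hairpin groups, at 10.23 in shIRE1a against 9.68 and 9.55, and at 10.70 in shCON against 9.23 and 8.58. Hgd was likewise highest on array 2 of both groups, at 10.17 in shIRE1a against 9.49 and 9.93, and at 10.17 in shCON against 8.89 and 8.88. Arg1 was high on array 2 in shCON only, and shIRE1a minus shCON was 1.21, 0.09 and 1.47 for Arg1 over arrays 1, 2 and 3.

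On shCON array 3, Pcca read 7.48 against 8.44 and 8.45, Bckdhb 8.10 against 9.10 and 8.86, Cth 9.94 against 10.86 and 10.77, and Cbs 8.45 against 9.33 and 9.33. The bright probe set shared by Ass1 and Gm5424 averaged 11.27 ± 0.17 in shIRE1a and 11.08 ± 0.27 in shCON cells (SD, n = 3 each); it was not tested. Of the carriers, Slc25a13, which exports the aspartate used by argininosuccinate synthetase, differed by 0.43 ± 0.17 in shIRE1a against shCON cells and by -0.39 ± 0.17 in shCON against EGFP cells, and neither passed (adjusted p = 0.583 and 0.13).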
